A study of Mus musculus with 16 samples.

Results

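A set of 10 genes that mark the primitive and visceral endoderm of the early mouse embryo was followed in pluripotent stem cell lines made from adipocyte progenitor cells. The 10 members were taken by name (Gata4, Gata6, Sox17, Sox7, Foxa2, Dab2, Cubn, Amn, Hnf4a and Afp) from 22552 genes with an expression value, and all 10 were found. The rule named the genes and set no threshold on a value. Gata4, Gata6 and Dab2, which fibroblasts also make, were kept apart from the other 7, since the nuclear transfer lines were derived on a layer of mouse embryonic fibroblasts, which a culture can still hold.

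The 16 lines had 1 RNA sequencing library each. AN lines (9) were nuclear transfer embryonic stem cells from blastocysts cloned with adipocyte progenitor nuclei, and AI lines (7) were induced pluripotent stem cells obtained from the same kind of progenitor with doxycycline. All carried the 129-M2rtTA background, so the AN lines also held the transgenes used for induction, and all were kept in serum and LIF. Tetraploid complementation, which asks whether injected cells can form a whole embryo, split the lines into fully (F) and partially reprogrammed (P) ones. The study gave this status by line name, and the sample labels did not repeat it. AN F held AN1, AN9, AN15 and AN20, and AN P held AN2, AN3, AN5, AN6 and AN7, at passages 5 to 7. AI F held GS32, AI3, AI7 and AI10, and AI P held AI9, GS4 and GS9. The new AI lines were at passage 7, and the earlier lines GS9, GS32 and GS4 were at passages 6, 13 and 17. Each line was sequenced once, so a p-value measures the spread between lines. The source entries of GS9 and GS32 named GS4, against their titles, and values of the AI lines are therefore also given without these 2 lines.

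Levels were FPKM, fragments per kilobase of transcript scaled to the mapped reads of a library, and differences were computed on log2(FPKM + 1). The smallest steps between the values corresponded to about 23400000 to 30700000 reads per line, which allowed the reads behind each value to be estimated. Correlations between lines, over genes with a mean of at least 0.5 FPKM, ranged from 0.929 to 0.978. Pou5f1, the core pluripotency factor, lay between 615 and 1222 FPKM in all 16 lines. The mean log2(FPKM + 1) of 17 pluripotency genes ranged from 5.38 in AN6 to 6.54 in GS4. That of 30 fibroblast genes, none of them a member, ranged from 3.69 in GS9 to 5.72 in GS32. The share of feeder or differentiated cells per line was not measured, and in bulk RNA fewer cells of a type and less RNA per cell cannot be told apart.

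The primitive endoderm is the first extraembryonic endoderm layer of the blastocyst. GATA6 and GATA4, zinc finger transcription factors, and SOX17 and SOX7, HMG box factors, act in its specification. Its descendant, the visceral endoderm, takes up maternal proteins through the receptor pair cubilin (Cubn) and amnionless (Amn) with the adaptor DAB2, carries the factors FOXA2 and HNF4A, and secretes alpha-fetoprotein (Afp). FOXA2 and SOX17 are also made in the anterior primitive streak and the definitive endoderm.

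Of the 10 members, 6 had a RefSeq promoter window, and 3 of these are shown because they belong to the member with the largest SD on the log2(FPKM + 1) scale (Foxa2), a receptor subunit detected in every line (Amn) and the member nearest to 0 (Afp). Each run is the 250 bases before the start of transcription, 5′ to 3′ on the gene's strand, matched to mm9 at 1 place, and capitals mark every CG and the letters TATAAA.
Foxa2, chr2:147872706-147872955, minus strand: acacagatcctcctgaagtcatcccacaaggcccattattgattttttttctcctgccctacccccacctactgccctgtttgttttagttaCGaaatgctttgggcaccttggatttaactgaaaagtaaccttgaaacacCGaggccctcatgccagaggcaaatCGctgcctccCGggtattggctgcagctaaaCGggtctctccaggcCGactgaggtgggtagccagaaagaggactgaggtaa
Amn, chr12:112509057-112509306, plus strand: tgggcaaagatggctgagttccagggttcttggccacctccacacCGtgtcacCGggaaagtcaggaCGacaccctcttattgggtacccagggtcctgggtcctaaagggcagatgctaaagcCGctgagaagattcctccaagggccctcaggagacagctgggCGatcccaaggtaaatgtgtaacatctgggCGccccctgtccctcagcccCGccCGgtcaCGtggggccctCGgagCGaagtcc
Afp, chr5:90919490-90919739, plus strand: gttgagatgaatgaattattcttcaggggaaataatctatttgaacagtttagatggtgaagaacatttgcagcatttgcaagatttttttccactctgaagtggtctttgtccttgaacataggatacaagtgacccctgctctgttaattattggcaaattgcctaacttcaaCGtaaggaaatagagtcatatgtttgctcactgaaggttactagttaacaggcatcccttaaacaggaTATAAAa
The windows shown for Foxa2, Amn and Afp held 6, 11 and 1 CG, against a median of 6 over 32851 windows of the mouse genome. The Foxa2 window shown is the outermost, and its windows at starts inside the gene held 13 and 20 CG. TATAAA, searched on both strands, was in 12.4% of all windows and in 2 of the 10 windows of members, those of Afp and of a start inside Foxa2. AGATAA, which holds the core that GATA factors bind, was also searched on both strands and was in 9.99% of all windows and in 2 of the 10, at that same inner Foxa2 start and at Hnf4a.

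The study listed PCR primers for Gata4, Gata6 and Sox17 as germ layer markers, which it measured in lines differentiated in vitro. Those for Gata4 and Sox17 are shown with the stretch of the transcript they span, with capitals for the 5 bases at each 3′ end.
Gata4 forward: ccctacccagcctaCATGG
Gata4 reverse: acatatcgagattggggTGTCT
Sox17 forward: gatgcgggatacgcCAGTG
Sox17 reverse: ccacctcgcctttcacCTTTA
The Sox17 pair matched both annotated coding transcripts and spanned bases 1095 to 1227 of the longer one, a product of 133 bases. The Gata4 pair matched 2 of 7 coding transcripts and gave a product of 139 bases. FPKM covers the whole gene, so these stretches are a part of what was counted.

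The members covered a wide range of levels. Dab2 (mean 3.69 ± 0.973 FPKM, SD, n = 16) and Foxa2 (2.63 ± 1.91) were highest, followed by Gata6 (0.949 ± 0.468) and Gata4 (0.939 ± 0.251). Sox7 (0.393 ± 0.0743), Amn (0.351 ± 0.132), Sox17 (0.296 ± 0.314) and Cubn (0.1003 ± 0.0682) were low, and Hnf4a (0.0166 ± 0.0176) and Afp (0.0140 ± 0.0143) were close to 0. Between neighbours in this order the means differed by less than the larger SD, apart from the steps from Gata4 to Sox7 and from Cubn to Hnf4a, and at every step the ranges over the lines overlapped. Of the 10 members, 4 had a mean of at least 0.5 FPKM and were tested among 13185 genes, namely Dab2, Foxa2, Gata6 and Gata4. The other 6 were tested in fits without that minimum over 19938 genes and by exact permutation.

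**Figure D1:**
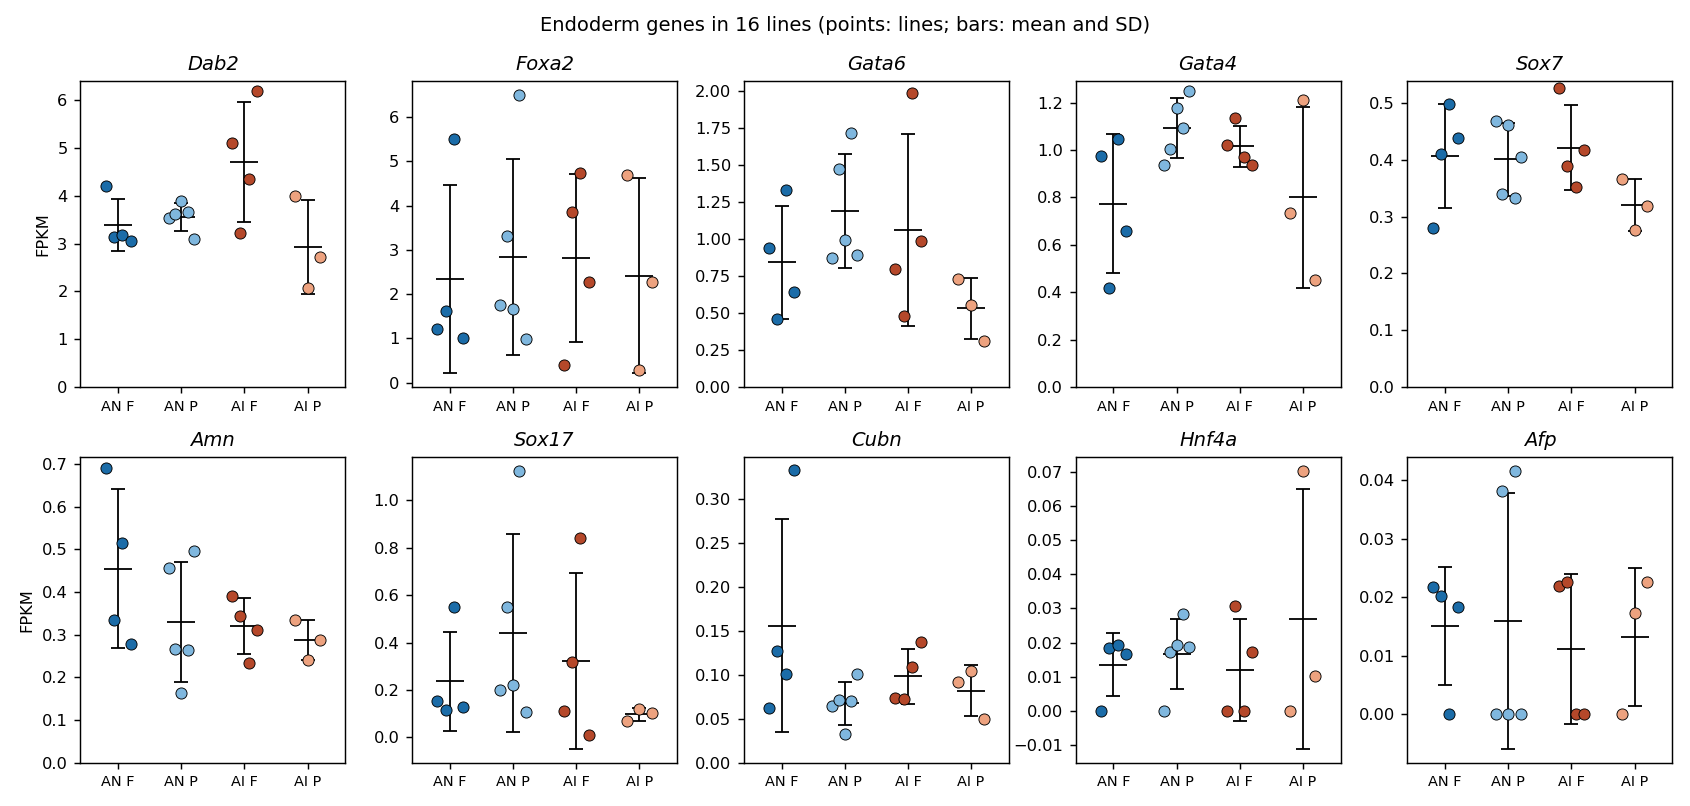
FPKM of each member (vertical axes, 1 scale per gene) in the 4 groups, with a point per line and bars for the mean and SD. The groups overlap for all 10 genes, and Foxa2 and Sox17 each have 1 AN F line, AN15, far above the other 3.

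Foxa2, the forkhead factor of the visceral endoderm and of the anterior streak, had the largest SD of the 10 members on the log2(FPKM + 1) scale. In AN F it was 1.21 FPKM in AN1, 1.63 in AN9, 5.50 in AN15 and 1.02 in AN20. In AN P it was 1.75 in AN2, 3.31 in AN3, 1.66 in AN5, 6.50 in AN6 and 0.986 in AN7. Each AN group therefore held lines near 1. Above 3 were AN15 alone in AN F, and AN3 and AN6 in AN P, and the groups overlapped. In AI F it was 0.408 in AI3, 3.85 in AI7, 4.73 in AI10 and 2.27 in GS32, and in AI P it was 4.69 in AI9, 0.287 in GS4 and 2.28 in GS9. The highest line, AN6, was 22.7-fold above the lowest, GS4, with about 319 and 17 reads. The SD of Foxa2 on the log2 scale, 0.78, was larger than that of 97.8% of the tested genes.

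Sox17, which directs endoderm formation, was high in a subset of those lines. It was 0.154 FPKM in AN1, 0.117 in AN9, 0.550 in AN15 and 0.129 in AN20. In AN P it was 0.202 in AN2, 0.552 in AN3, 0.220 in AN5, 1.13 in AN6 and 0.106 in AN7. AN6, AN3 and AN15 were thus the 3 highest AN lines for Sox17, as they were for Foxa2. In AI F it was 0.113 in AI3, 0.320 in AI7, 0.843 in AI10 and 0.0121 in GS32, and in AI P it was 0.0677 in AI9, 0.122 in GS4 and 0.102 in GS9. GS32 and AI9 had about 1 and 6 reads of Sox17 but 123 and 273 of Foxa2, so the pair did not go together in every line. Over the 16 lines Sox17 and Foxa2 had a Pearson r of 0.687 (permutation p = 0.0023) and a Spearman rho of 0.491 (permutation p = 0.057). Within the 9 AN lines r was 0.942 (exact permutation p = 0.00059), within the 7 AI lines 0.441 (exact permutation p = 0.322), without AN6 and AI10 it was 0.517, and without GS9 and GS32 it was 0.738. This was 1 of 45 pairs of members, and the p-values of pairs are unadjusted and two-sided.

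Foxa2 went with genes of the primitive streak across lines, and with other lists too. Of all 13185 tested genes, the 3 whose pattern was most like Foxa2 were Wnt3, a secreted signal needed to form the streak (r = 0.958 over 16 lines), Dgkk, a diacylglycerol kinase (0.957), and Alox15, a lipoxygenase (0.957). Wnt3 ran from 0.781 FPKM in GS4 to 10.8 in AN6. Brachyury (T), the defining gene of the streak, ran from 5.85 in GS4 to 257.04 in AN6. The mean log2(FPKM + 1) of 14 streak and definitive endoderm genes other than the members, a comparison chosen after the data were seen, lay between 1.08 in GS4 and 2.99 in AN6. Of these 14 genes, 10 were highest in AN6, and 10 had an r with Foxa2 above 0.8. The mean of 15 trophoblast genes, also highest in AN6, had an r of 0.915 with Foxa2 and 0.837 with Sox17. The mean of 11 anterior visceral endoderm genes had 0.779 with Foxa2 and 0.909 with Sox17. The first of these lists shares Eomes with the streak list and the second shares Lhx1, Hhex, Cer1 and Gsc. The mean of 31 visceral endoderm genes other than the members, Eomes among them, had 0.639 with Foxa2 and 0.742 with Sox17. No difference between these correlations was tested.

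Against the mean of the streak and definitive endoderm genes, Foxa2 had a Pearson r of 0.949 and a Spearman rho of 0.968. Each had a permutation p of 2.0e-05, the smallest that 100000 resamples can give. The relation held within the AN lines (r = 0.976, exact permutation p = 6.1e-05) and within the AI lines (r = 0.930, exact permutation p = 0.0036). It was 0.959 without AN6 and AI10, the lines farthest from the median, and 0.957 without GS9 and GS32. Of the tested genes, which include Foxa2 and 12 genes of the list itself, 0.197% had an r with the streak mean as high as that of Foxa2. For Sox17 the Pearson r was 0.839 (permutation p = 0.00012) and the Spearman rho 0.576 (permutation p = 0.023). It was 0.981 within AN (exact permutation p = 0.00066), 0.690 within AI (exact permutation p = 0.090), 0.633 without AN6 and AI10 and 0.887 without GS9 and GS32. An r as high as 0.839 was found in 1.55% of the tested genes, the list's own genes included.

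Gata6 had a weaker relation of the same sign, and Gata4 none that could be detected. For Gata6 the r with the streak mean was 0.601 (permutation p = 0.016) and rho 0.521 (permutation p = 0.041), with 0.839 within AN (exact permutation p = 0.0044), 0.423 within AI (exact permutation p = 0.346) and 0.716 without GS9 and GS32. Without AN6 and AI10 it was 0.240 over the other 14 lines, so the relation over all lines rests on those 2, while the 8 AN lines without AN6 still had an r of 0.750. For Gata4 r was 0.02 (permutation p = 0.961). The other 6 members had an r between -0.268 (Cubn) and 0.195 (Afp). The p-values of these 10 relations are unadjusted. With the mean of 18 primitive endoderm genes other than the members, r ran from -0.419 (Hnf4a) to 0.825 (Gata6). For Gata6 it was 0.934 within AN, 0.848 within AI and 0.795 without GS9 and GS32. Dab2 had 0.688, Foxa2 0.570, Sox17 0.546 and Gata4 0.395. With the mean of 17 parietal endoderm genes Gata6 had 0.823, Dab2 0.707 and Gata4 0.438. The parietal list shares Fst, Sparc and its laminin, collagen IV and nidogen genes with the primitive endoderm list, so their values are not independent. Sparc and the collagen IV chains are also made by fibroblasts. The values for these endoderm lists were not tested.

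**Figure D2:**
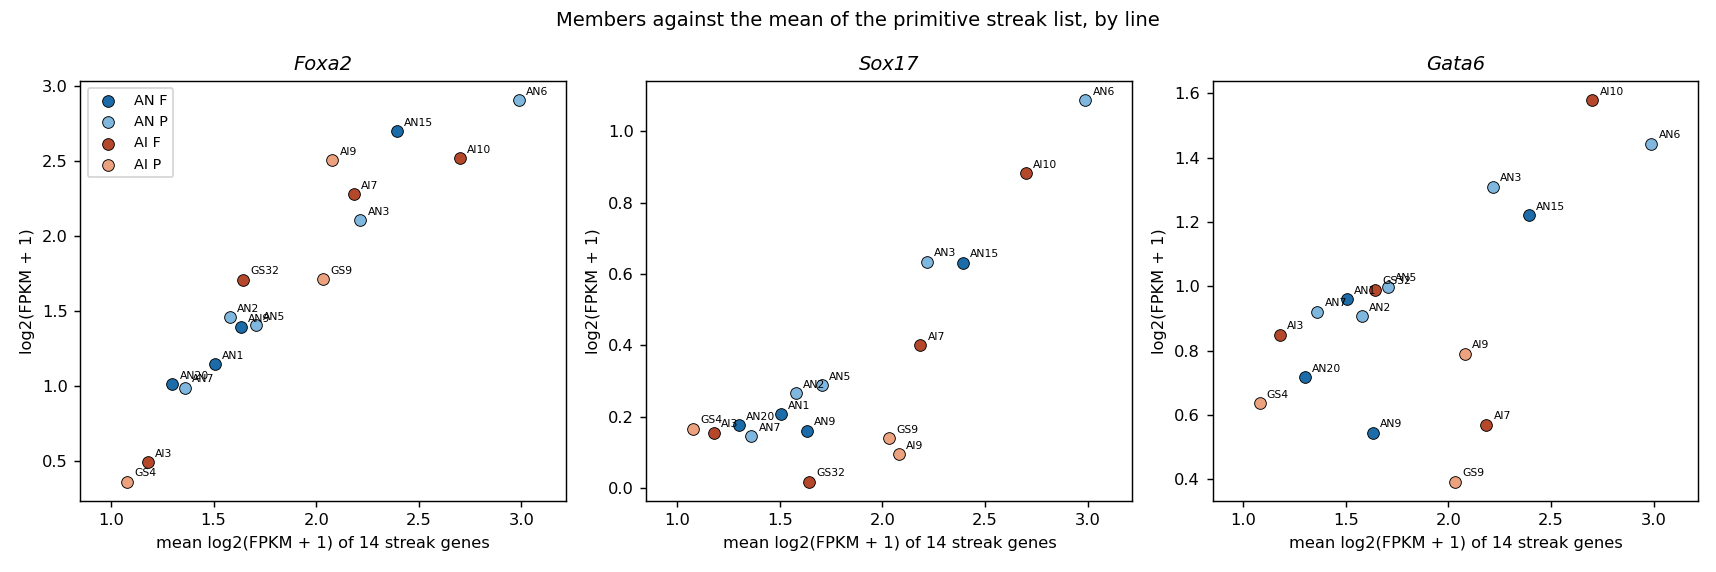
Log2(FPKM + 1) of Foxa2, Sox17 and Gata6 (vertical axes) against the mean log2(FPKM + 1) of 14 streak genes (horizontal axes), a point per line coloured by group. Foxa2 follows the streak mean in all 4 groups (r = 0.949), while for Sox17 the lines AI9, GS9 and GS32 lie below the others at the same streak mean.

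The zinc finger factors Gata4 and Gata6 and the adaptor Dab2 were present in every line. Gata4 in AN F was 0.975 FPKM in AN1, 0.418 in AN9, 1.05 in AN15 and 0.657 in AN20, and in AN P it was 0.939 in AN2, 1.00 in AN3, 1.18 in AN5, 1.09 in AN6 and 1.25 in AN7. AN9 and AN20 were the 2 lowest AN lines. In AI F it was 1.02 in AI3, 1.13 in AI7, 0.969 in AI10 and 0.936 in GS32, and in AI P it was 0.735 in AI9, 1.21 in GS4 and 0.453 in GS9. The 4 AI F lines were close together, and the AI P lines lay on both sides of them.

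Gata6 in AN F was 0.944 FPKM in AN1, 0.459 in AN9, 1.33 in AN15 and 0.644 in AN20, and in AN P it was 0.874 in AN2, 1.48 in AN3, 0.997 in AN5, 1.72 in AN6 and 0.893 in AN7. In AI F it was 0.801 in AI3, 0.484 in AI7, 1.99 in AI10 and 0.986 in GS32, and in AI P it was 0.729 in AI9, 0.554 in GS4 and 0.313 in GS9. AI10 and AN6 were the highest lines, as they were for Sox17, and GS9 was the lowest. Exons of Gata6 overlap a noncoding gene on the other strand, and reads of the pair cannot be told apart where the counting ignored strand. Gata6 and Sox17 had an r of 0.784 over 16 lines (permutation p = 0.00070) and a rho of 0.600 (permutation p = 0.016), with 0.882 within AN and 0.682 within AI, 0.567 without AI10 and AN6, and 0.843 without GS9 and GS32.

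Dab2, the clathrin adaptor, in AN F was 4.21 FPKM in AN1, 3.15 in AN9, 3.17 in AN15 and 3.05 in AN20, and in AN P it was 3.54 in AN2, 3.62 in AN3, 3.89 in AN5, 3.67 in AN6 and 3.10 in AN7. In AI F it was 5.11 in AI3, 3.21 in AI7, 4.35 in AI10 and 6.19 in GS32, and in AI P it was 3.99 in AI9, 2.08 in GS4 and 2.72 in GS9. The AN lines were within a narrow band, and both the highest and the lowest line were AI lines.

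Dab2 moved with the fibroblast genes. Against the mean of the 30 fibroblast genes its Pearson r was 0.802 (permutation p = 6.0e-05) and its Spearman rho 0.800 (permutation p = 0.00034). Within AI r was 0.893 (exact permutation p = 0.010), within AN 0.481 (exact permutation p = 0.197), and without GS9 and GS32, which were also the lines farthest from the median, 0.786. An r as high as 0.802 was found in 5.91% of the tested genes, which include Dab2 and the 30 fibroblast genes. Gata6 had an r of 0.643 (permutation p = 0.0055) and a rho of 0.665 (permutation p = 0.0063), with 0.527 within AN, 0.736 within AI (exact permutation p = 0.015) and 0.581 without GS9 and GS32. For Gata4 r was 0.388 (permutation p = 0.156) and rho -0.003, with 0.579 within AN (exact permutation p = 0.080), 0.322 within AI (exact permutation p = 0.494) and 0.111 without GS9 and GS32. Fibroblasts were not said to make the other 7 members. Their r ran from -0.472 (Hnf4a, permutation p = 0.095) to 0.248 (Amn, permutation p = 0.355). Foxa2 had 0.178, and Hnf4a had -0.759 without GS9 and GS32. Hnf4a had 3 reads or fewer in every line but GS4, which had about 9 and a fibroblast mean of 4.19. Its r without GS4 was not computed. Within AI the r of these 7 ran from -0.703 (Afp) to 0.659 (Cubn), with 0.628 for Sox7. Within AN it ran from -0.574 (Sox7) to 0.385 (Amn), with -0.450 for Cubn. The 10 p-values are unadjusted.

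By pattern, the genes most like Dab2 were Sytl2 (r = 0.941), Grb14 (0.936) and Il18rap (0.928). Those most like Gata6 were Foxd1, a forkhead factor (0.910), Pofut2, a fucosyltransferase (0.896), and Wnt11, a secreted signal (0.893). Those most like Gata4 were Dynll2, a dynein light chain (0.874), Cdkn2a, a cell cycle inhibitor (0.853), and Ptp4a3, a phosphatase (0.850). These values describe 16 lines over 13185 genes and have no test. Without GS9 and GS32 the r of these genes and of those most like Foxa2 lay between 0.806 (Cdkn2a) and 0.966 (Alox15).

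**Figure D3:**
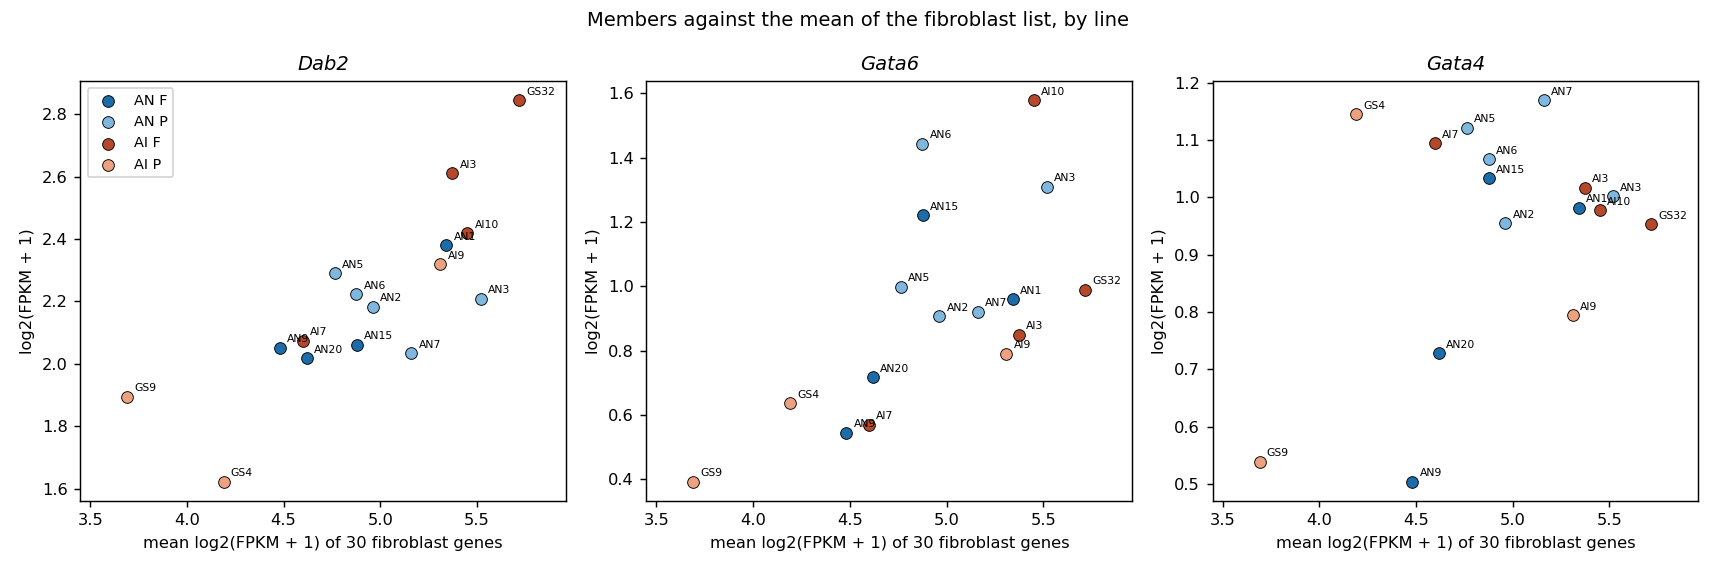
Log2(FPKM + 1) of Dab2, Gata6 and Gata4 (vertical axes) against the mean log2(FPKM + 1) of 30 fibroblast genes (horizontal axes), a point per line coloured by group. Dab2 is highest in GS32, the line with the highest fibroblast mean (5.72), and low in GS4 and GS9 (r = 0.802), and Gata4 has an r of 0.388 over all lines and 0.579 within AN.

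The remaining members gave few reads. Sox7 was the steadiest of the detected members, with about 21 to 39 reads and 0.276 (GS4) to 0.526 FPKM (AI3) in the 16 lines. Amn had 6 to 25 reads, from 0.163 FPKM in AN5 to 0.691 in AN1. Cubn, which encodes the large receptor that AMN carries to the membrane, had 9 to 108 reads. Its values lay between 0.0326 FPKM in AN5 and 0.137 in GS32, apart from 0.334 in AN20. Cubn and Amn had an r of -0.103 over the 16 lines (permutation p = 0.775) and a rho of -0.041. Their partner Lrp2 (megalin), which is no member, ran from 3.96 to 13.7 FPKM.

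Hnf4a and Afp were at or near the limit of detection. Afp had no read in 7 lines and 1 or 2 in the other 9, with a highest value of 0.0417 FPKM in AN6. Hnf4a had no read in 5 lines, 1 to 3 in 10 lines and about 9 in GS4 (0.0703 FPKM). By counting error, a line with an expected count of up to 3 reads can still give 0. In 15 of the 16 lines for Hnf4a, and in all 16 for Afp, the estimate was at or under 3. Their differences between groups, at a few reads, are too uncertain to read a direction from. Some other visceral endoderm genes were low too. Ttr, the transthyretin gene, was listed at 0 in 15 lines and the fibrinogen gene Fgb in 11. The apolipoprotein genes Apoa1 and Apob reached 0.251 and 0.108 FPKM. Of 31 visceral endoderm genes other than the members, 15 stayed under 1 FPKM in every line, and 9 were at or over 1 FPKM in every line, among them Apoe (185 to 441 FPKM) and Cldn6 (44.1 to 248 FPKM). The genes named here were picked after their values were seen. Pdgfra, the receptor that marks primitive endoderm and is also made by fibroblasts, lay between 0.804 and 2.54 FPKM.

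**Figure D4:**
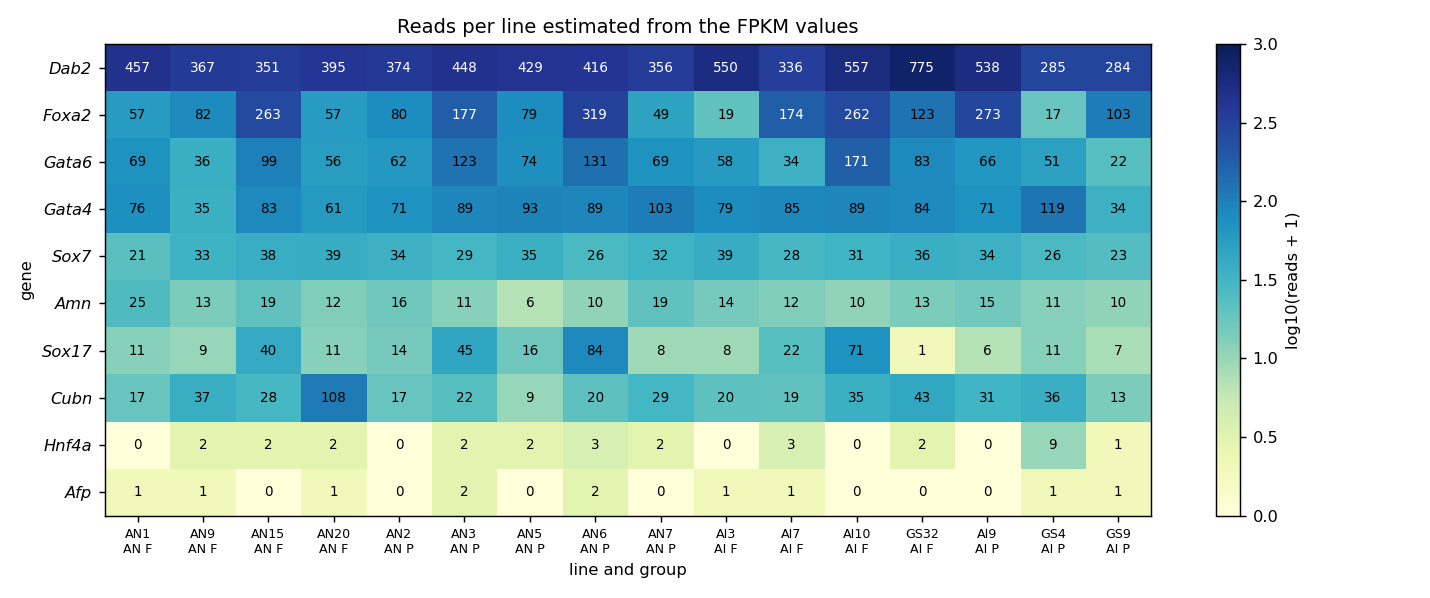
Reads per line (columns, with the group below each line) estimated for each member (rows) from the FPKM steps, with colour for log10(reads + 1). Afp has at most 2 reads in any line and Hnf4a at most 9, whereas Dab2 has 284 or more everywhere.

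The first comparison asked whether the members differed between fully and partially reprogrammed nuclear transfer lines. In AN F against AN P, 0 of 10 members had an adjusted p under 0.05 by limma, and 0% of the 13185 tested genes did. At an unadjusted p under 0.05 the members were also 0, against 6.01% of the tested genes, and 0 members had groups without overlap, against 1.3%. Gata4 was 0.774 ± 0.291 FPKM (n = 4) in AN F and 1.09 ± 0.126 (n = 5) in AN P, a log2 difference of -0.25 (SE 0.11, limma adjusted p = 0.636, exact permutation p = 0.079), and -0.15 without AN9. Gata6 had a log2 difference of -0.25 (SE 0.16, limma adjusted p = 0.638), with 0.845 ± 0.381 against 1.19 ± 0.383 FPKM, and -0.15 without AN9. Foxa2 differed by -0.21 with a 95% interval from -1.20 to 0.78, and Dab2 by -0.06 with one from -0.28 to 0.16. For Foxa2 the sign turned without AN6, to 0.07. Among the low members, Cubn had 0.156 ± 0.121 against 0.0679 ± 0.0243 FPKM (exact permutation p = 0.127) and Sox17 0.237 ± 0.209 against 0.441 ± 0.418 (exact permutation p = 0.349). The log2 difference of Cubn was 0.11, and 0.039 without AN20, and that of Sox17 was -0.19, and -0.040 without AN6. The smallest p that 4 against 5 lines allow is 0.016.

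The second comparison put the same question to the induced lines. In AI F against AI P, 0 of 10 members passed by adjusted p, as did 0% of the tested genes. At an unadjusted p under 0.05 there were 0 members against 7.77% of the tested genes, and 0 members had groups without overlap, against 4.88%. Dab2 was 4.71 ± 1.25 FPKM (n = 4) in AI F and 2.93 ± 0.975 (n = 3) in AI P, a log2 difference of 0.54 (SE 0.23, limma adjusted p = 0.521, exact permutation p = 0.114). It was 0.40 without GS9 and GS32 and 0.16 with the fibroblast mean as a term. Gata6 was 1.06 ± 0.649 against 0.532 ± 0.209 FPKM, a log2 difference of 0.39 (SE 0.23, limma adjusted p = 0.522). It was 0.29 without GS9 and GS32, 0.20 without AI10 and 0.096 with the fibroblast mean as a term. For Gata4 the difference was 0.18 (SE 0.14, limma adjusted p = 0.567), 0.059 without GS9 and GS32 and 0.18 with the fibroblast mean as a term. It was 0.040 without GS9 alone and 0.34 without GS4. Foxa2 differed by 0.22 with an interval from -1.24 to 1.68, and the sign turned without GS4, to -0.36. Without GS9 and GS32 it was 0.33. Sox7 was 0.421 ± 0.0750 against 0.321 ± 0.0455 FPKM (exact permutation p = 0.114), with a log2 difference of 0.11 both with and without GS9 and GS32. All 30 fibroblast genes had a positive difference in this comparison, with a median of 0.94 on the log2 scale, against -0.04 for all tested genes, but 0 of 30 had an adjusted p under 0.05. Without GS9 and GS32, 28 of 30 were positive with a median of 0.44. Their part in the values of Gata4, Gata6 and Dab2 was not tested beyond that term. With derivation (new or earlier lines) as a term, the log2 difference was 0.54 for Dab2, 0.33 for Gata6, 0.18 for Gata4 and -0.08 for Foxa2. Among the new lines AI P held AI9 alone, and among the earlier lines AI F held GS32 alone, so neither set was tested by itself. Groups of 4 and 3 cannot give an exact permutation p under 0.057.

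**Figure D5:**
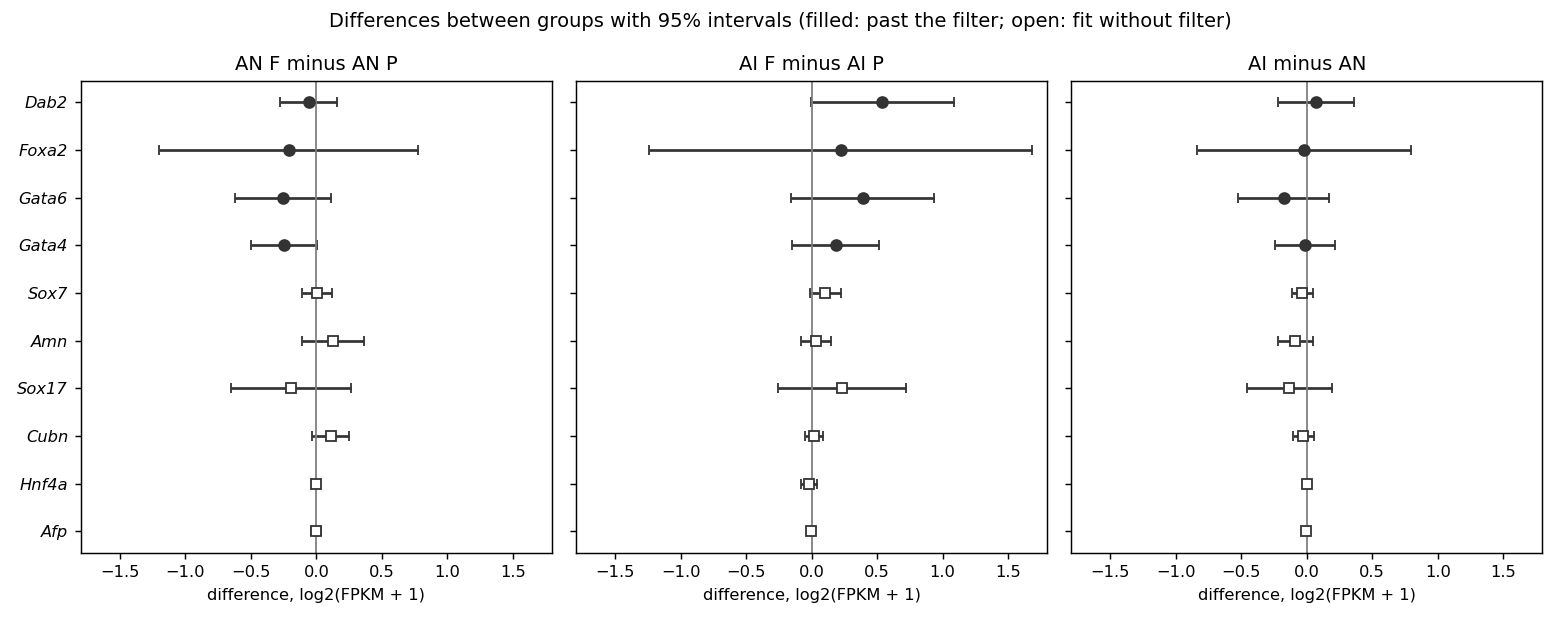
Differences on the log2(FPKM + 1) scale (horizontal axes) with 95% intervals from limma for the 10 members in the 3 comparisons, with filled points for members past the minimum level and open squares for the others. All 30 intervals include 0, and those of Foxa2 are the widest.

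In AI against AN, with status as a term, 0 of 10 members passed by adjusted p (0% of the tested genes) and 0 by unadjusted p (3.31%), and 0 members had groups without overlap (0.0228%). Dab2 was 3.95 ± 1.42 FPKM in the 7 AI lines and 3.49 ± 0.402 in the 9 AN lines, a log2 difference of 0.07 (SE 0.14, limma adjusted p = 1). Gata6 differed by -0.18 (SE 0.16), Gata4 by -0.01 (SE 0.11) and Foxa2 by -0.02 (SE 0.38), each with a limma adjusted p of 1. Amn was 0.306 ± 0.0565 against 0.385 ± 0.166 FPKM (exact permutation p = 0.279). Without GS9 and GS32 the difference was 0.03 for Dab2, -0.11 for Gata6, 0.08 for Gata4 and -0.04 for Foxa2.

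The effect of status in AI minus that in AN was tested as its own term. By adjusted p 0 of 10 members passed (0% of the tested genes), and at an unadjusted p under 0.05 there were 3, Gata4, Gata6 and Dab2, where 16.6% of the tested genes passed. For Gata4 the effects differed by 0.43 (SE 0.19, limma adjusted p = 0.291, exact permutation p = 0.038). For Gata6 they differed by 0.65 (SE 0.29, limma adjusted p = 0.295, exact permutation p = 0.048) and for Dab2 by 0.60 (SE 0.24, limma adjusted p = 0.290, exact permutation p = 0.069). The exact permutation shuffled status within AI and within AN, so its null was no effect of status in either. A small p from it cannot show that the effects differ between AI and AN. Without GS9 and GS32, in fewer lines, the differences were 0.31 for Gata4 (exact permutation p = 0.106), 0.54 for Gata6 (exact permutation p = 0.154) and 0.46 for Dab2 (exact permutation p = 0.259). The differences of the fibroblast genes had the same signs, 30 of 30 positive in AI and 27 of 30 negative in AN, where their median was -0.25. None of the 30 passed by limma's adjusted p in either comparison, and at an unadjusted p under 0.05 there were 5 in AI and 0 in AN. The summed level of those 30 genes ran from 1517 to 2709 FPKM in AN F, from 1904 to 3637 in AN P, from 1836 to 3698 in AI F and from 942 to 3126 in AI P.

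The other genes of these tissues were counted in the same fits. Of 16 tested primitive endoderm genes other than the members, 0 passed by adjusted p in any of the 3 comparisons. In AN F against AN P, 12 of the 16 were negative with a median of -0.23, and Lrp2, the endocytic receptor megalin, had the smallest p (log2 difference 0.29, limma adjusted p = 0.636). In AI F against AI P, 14 of the 16 were positive with a median of 0.50, and Fgfr2, the FGF receptor, had the smallest p (0.56, limma adjusted p = 0.521). The 16 tested visceral endoderm genes had medians of -0.03 and -0.10 in those comparisons, and 16 parietal endoderm genes, many of them basement membrane genes, had -0.28 and 0.69. For all tested genes the medians were -0.01 and -0.04. The primitive and parietal endoderm lists share genes, and several of their genes, such as Sparc and the collagen IV chains, are also made by fibroblasts. The 11 tested genes of the endocytic receptor complex had medians of -0.03 and 0.01, and the 12 streak genes -0.25 and 0.20, with 0 of either list past the adjusted threshold. Without GS9 and GS32 the AI medians were 0.45 for the primitive endoderm, -0.05 for the visceral endoderm, 0.48 for the parietal endoderm, 0.005 for the receptor complex and 0.51 for the streak genes.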

How the data were processed

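RNA from 16 lines was sequenced by the study as single-end reads, 1 library per line. Per the labels and methods, the authors mapped reads to mm9 with TopHat2 2.1.0 and computed FPKM with Cufflinks 2.2.1. The deposited file gives FPKM per gene name, 1 column for each line. HTSeq is named in the submitters' processing notes with no role. The strand setting is not given in the sources used here, so reads of Gata6 and Cubn cannot be told apart from those of genes on the other strand that overlap their exons. Dab2 has 2 gene entries in the mm9 annotation.

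Genes with a mean of at least 0.5 FPKM over the 16 lines (13185 of 22552) were tested on log2(FPKM + 1) by limma 3.58.1 (R 4.3.3, trended prior variance). The p-values of all tested genes were adjusted together (Benjamini-Hochberg), with a threshold of 0.05. The comparisons were AN F against AN P (9 lines), AI F against AI P (7 lines), and AI against AN (16 lines, status as a term). Members under the minimum were fitted without it. Exact permutation tests were two-sided and doubled the smaller tail, as scipy 1.17.1 does. Correlations over 16 lines used 100000 permutations, and those within AN or AI all orders. The limma and permutation code was tested on simulated data. The members and lists were chosen with earlier results of these data known. All 10 members were named, with up to 4 genes of a list by smallest p and, for each member past the minimum, the 3 tested genes with the highest r. Genes such as T, Pdgfra, Ttr and Apoe were named after their values were seen.

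Depth per line came from the FPKM step of 1 read over 6593 single-transcript genes, with 199 bases taken off each length. Of the values of about 1 to 5 reads, 75.3% to 79.8% were whole within 0.05 reads. Reads of members use the longest transcript and are approximate, and limits from them cover counting error only. Promoter windows are RefSeq's (GRCm38.p6), matched by sequence to mm9, and Gata4, Gata6, Sox17 and Sox7 had none. The alternatives were another pseudocount, other minimum levels, quantile normalization, median-ratio scaling, a joint fit, no trend, passage, derivation or the fibroblast mean as a term, no status term, and leaving out lines. The relations to lists other than the fibroblast list, the permutation of the difference of effects and the read estimates were chosen after seeing the data. Cuffdiff was not run.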

Additional observations from a re-analysis of the deposited data

Results flagged for a closer look

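In AN F, 5 values met Dixon's limit against the other 3 lines, over 30 groups of 4 or 5 lines examined, of which chance would mark about 1.5. Of these, 3 rest on more than a few reads. AN15 stood above the others for Foxa2, at 5.50 FPKM against 1.02 to 1.63, and for Sox17, at 0.550 FPKM against 0.117 to 0.154. AN1 stood above them for Dab2, at 4.21 FPKM against 3.05 to 3.17. The other 2, AN1 at 0 for Hnf4a and AN15 at 0 for Afp, were 0 reads where the other lines had 1 or 2, which counting error covers, so they show no distance.

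The effect of status in AI minus that in AN was flagged for Gata4 (0.43 on the log2 scale, exact permutation p = 0.038) and for Gata6 (0.65, exact permutation p = 0.048). They were the only values under 0.05 among 40 exact tests of members, and the share of all genes passing the exact test was not computed. At an unadjusted limma p under 0.05, 16.6% of the tested genes passed for this term. The null of the exact test is no effect of status in either AI or AN, so it cannot show that the effects differ. Neither difference had a limma adjusted p under 0.05 over all tested genes, and without GS9 and GS32 the differences were 0.31 and 0.54, with an exact permutation p of 0.106 and 0.154.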

How the results depend on the processing

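No member passed the adjusted threshold in AN F against AN P, AI F against AI P or AI against AN under any alternative run, and 526 of 572 repeated member values kept their sign. The count over all tested genes, 0 in each comparison, became 6 without GS9 and GS32 in AI F against AI P. In AI against AN it became 1 without GS9 and GS32 and 1 with the fibroblast mean as a term. Leaving out 1 line gave 0 to 1 in AN F against AN P (1 without AN1, AN20 or AN6), 0 to 5 in AI F against AI P (3 without AI10, 1 without GS32 or GS4, 5 without GS9) and 0 to 2 in AI against AN (2 without GS9). The cause was not tested. The log2 differences that turned sign were these. In AN F against AN P, Afp was 0.0042 with a pseudocount of 0.1, 0.0035 with quantile normalization and 0.0032 with the fibroblast term, and Sox7 was -0.028 with that term. In AI F against AI P, Afp was 0.0015 with quantile normalization, 0.017 with the fibroblast term and 0.0089 without GS9 and GS32, and Cubn was -0.014 with that term and -0.017 without those lines. Foxa2 was -0.054 with the fibroblast term and -0.078 with derivation as a term, and Hnf4a 0.00096 with the fibroblast term. In AI against AN, Foxa2 was 0.33 with passage as a term and 0.00092 with the fibroblast term, Hnf4a -0.013 with passage, and Gata4 0.0023 with the fibroblast term and 0.076 without GS9 and GS32. Leaving out 1 line in AN F against AN P gave -0.026 to 0.049 for Sox7, -0.59 to 0.071 for Foxa2, -0.010 to 0.0020 for Hnf4a and -0.0067 to 0.0080 for Afp. In AI F against AI P it gave -0.36 to 0.71 for Foxa2, -0.00060 to 0.036 for Cubn, -0.039 to 0.0097 for Hnf4a and -0.013 to 0.0036 for Afp. In AI against AN it gave -0.078 to 0.077 for Gata4, -0.20 to 0.25 for Foxa2, -0.012 to 0.18 for Dab2, -0.041 to 0.011 for Cubn and -0.0083 to 0.012 for Hnf4a. No paired analysis was run, since each line was sequenced once and nothing in the labels pairs the lines. Depth limits Afp, Hnf4a, Sox17 and Amn most, with medians of 1, 2, 11 and 12.5 reads per line.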
